A study of Mus musculus with 14 samples.

Results

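The annexins are a gene family, and its 10 members with transcripts in skin regulatory T (Treg) cells or hair follicle stem cells (HFSC) are described here: Anxa1, Anxa2, Anxa3, Anxa4, Anxa5, Anxa6, Anxa7, Anxa8, Anxa9 and Anxa11. They were taken by gene symbol from the 24537 symbols that have a row in both of the study's expression tables, and all 10 had one. They were chosen by symbol, but the family was proposed with 2 kinds of measured values of these tables in view, its TPM levels and its GR KO against GR WT differences, the Anxa8 difference in Treg cells among them. Levels and differences are therefore a description of these libraries, and they support no claim about the family. The study sequenced mRNA of sorted mouse skin cells after hair depilation, which starts a new round of hair growth, to ask how glucocorticoid signalling in Treg cells bears on the stem cells. Treg cells were sorted 1 day after depilation from wild-type mice (GR WT, 3 libraries) and from Foxp3YFP-Cre GRfl/fl mice (GR KO, 5 libraries). HFSC, sorted as CD34+ITGA6high cells, came from the same genotypes 4 days after depilation (3 and 3 libraries). In the GR KO mice the Cre recombinase is driven by Foxp3, so the floxed glucocorticoid receptor gene is targeted in Foxp3-expressing cells and not in the stem cells. The labels do not say whether the wild-type mice carry the Cre, and give no age, sex or strain. Nothing in them states that replicates come from separate animals, and p-values cover only the spread among the libraries sequenced, which may be technical.

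Annexins are cytosolic proteins that bind acidic phospholipids of membranes when calcium rises. A conserved core of repeats carries the calcium sites, and a variable N-terminal tail binds partners such as S100 proteins. Anxa1 is a classic glucocorticoid-regulated protein that signals through formyl peptide receptors and dampens inflammation, and Anxa2 with S100a10 helps assemble plasmin at the cell surface. Anxa5 binds phosphatidylserine on dying cells, and several members take part in sealing torn membranes. In skin, Anxa8 is known as an annexin of stratified epithelium.

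Expression is given as TPM, transcript abundance scaled for transcript length and library size, so levels can be compared between genes. Depth was 9167605 to 14461504 counted tags per Treg library and 4503905 to 7989730 per HFSC library. The sorted types carried their defining markers, since Foxp3, Il2ra, Ctla4, Ikzf2, Cd3e and Cd4 summed to 4545 to 7653 TPM in the Treg libraries and 8 stem cell markers to 4643 to 8613 TPM in the HFSC libraries. The Treg sum was 6930 to 7653 TPM in GR WT and 4545 to 7627 TPM in GR KO. Of the 6, 1 was called lower in GR KO, against 1.31% of all genes tested. It was Il2ra, the interleukin 2 receptor alpha chain gene (485 ± 33.4 and 330.1 ± 10.95 TPM, limma adjusted p = 0.00575). Nr3c1, which encodes the glucocorticoid receptor, stood at 171, 233 and 229.7 TPM in the Treg GR WT libraries and at 106, 125, 106, 171 and 139 TPM in the GR KO libraries. The groups overlapped and the GR KO mean was 61.3% of the GR WT mean (log2 difference -0.71, limma Benjamini-Hochberg adjusted p = 0.0722), so the knockout label rests on the genotype. In a principal component analysis of the Treg libraries, GR WT replicate 3 lay furthest out (component 1 at 52.1, the others at -24.5 to 22.9). HFSC GR WT replicate 1 was the shallowest HFSC library and stood apart from the rest in a principal component analysis (component 1 at 59.8, the others at -17.7 to -4.02). The HFSC differences of the annexins, and of partner genes whose groups did not overlap, are also given without it.

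Promoter windows of 250 bases before a transcript start were available from RefSeq (GRCm38.p6, the assembly called mm10 in the authors' notes) for 8 of the 10 members, with 11 windows in all. The windows of Anxa1, Anxa2 and Anxa8 are shown because Anxa1 is the member known for glucocorticoid control, Anxa2 was among the most abundant members in both cell types, and Anxa8 was the member that differed between the Treg groups. They read 5′ to 3′ on the gene's strand and end just before the start, with motif matches in capitals. The Anxa1 window is chr19:20390672-20390921 (minus strand), the Anxa2 window chr9:69453433-69453682 (plus strand) and the Anxa8 window chr14:34085729-34085978 (plus strand).
Anxa1: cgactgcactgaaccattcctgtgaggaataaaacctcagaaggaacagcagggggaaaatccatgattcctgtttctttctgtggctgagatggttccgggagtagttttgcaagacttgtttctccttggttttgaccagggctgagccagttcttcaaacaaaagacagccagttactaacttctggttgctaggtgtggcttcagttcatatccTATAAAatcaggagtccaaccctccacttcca
Anxa2: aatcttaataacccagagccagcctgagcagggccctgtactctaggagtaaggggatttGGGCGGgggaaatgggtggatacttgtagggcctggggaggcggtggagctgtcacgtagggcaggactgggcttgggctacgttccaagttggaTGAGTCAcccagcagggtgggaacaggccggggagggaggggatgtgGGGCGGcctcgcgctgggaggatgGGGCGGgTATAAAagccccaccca
Anxa8: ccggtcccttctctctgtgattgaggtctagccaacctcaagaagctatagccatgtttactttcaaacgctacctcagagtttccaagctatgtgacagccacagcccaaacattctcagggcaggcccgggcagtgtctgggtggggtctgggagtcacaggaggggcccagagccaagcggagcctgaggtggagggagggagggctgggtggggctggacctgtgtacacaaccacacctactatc
The motifs searched on both strands were TGTTCT (the hexamer bound by 1 receptor molecule), the paired glucocorticoid response element (AGAACA and TGTTCT in that order, 3 bases apart), the AP-1 site TGANTCA, the TATA box TATAAA and the GC box GGGCGG. A paired element contains the hexamer, so those matches overlap. The Anxa1 window held a TATA box 32 to 27 bases before the start, and no other match. The Anxa2 window held a TATA box at 17 to 12 bases, an AP-1 site (TGAGTCA) at 95 to 89 bases and 3 GC boxes. The Anxa8 window held none of the motifs and is printed in lower case throughout. It had 4 CpG dinucleotides, against 2 for Anxa1, 9 for Anxa2 and a median of 6 over all 32851 windows. The paired element was in none of the members' 11 windows and in 3 of all windows (0.00913%). The hexamer was in 1 window of a member, that of an alternative Anxa4 start 18470 bases into the gene (2 matches), and in 16.1% of all windows. For comparison, 12.4% of all windows held the TATA box, 6.75% the AP-1 site and 32.7% the GC box. A match is a description of these letters and not a bound site.

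Treg cells and HFSC both held abundant annexin transcripts, but in different proportions. In Treg libraries the members ranked, by mean level, Anxa2, Anxa6, Anxa1, Anxa5, Anxa4, Anxa7, Anxa11, Anxa8, Anxa3 and Anxa9. Anxa2 averaged 620 TPM over the 8 Treg libraries and ranked 145 among all genes, and Anxa6 averaged 475 TPM and ranked 198. Their ranges did not overlap each other, nor did those of Anxa6 and Anxa1, or of Anxa5 and Anxa4. All other neighbours in the order overlapped, although Anxa1 was above Anxa5 in 7 of 8 libraries and Anxa7 above Anxa11 in 8 of 8.

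In HFSC the order was Anxa8, Anxa2, Anxa1, Anxa5, Anxa6, Anxa4, Anxa7, Anxa11, Anxa9 and Anxa3. Anxa8 averaged 896 TPM over the 6 libraries and ranked 66 among all genes, and Anxa2 averaged 809.6 TPM and ranked 76. The leading pair could not be ordered, since Anxa8 was above Anxa2 in 3 of 6 libraries, and Anxa2 was the higher on the GR WT mean (831 against 764 TPM). Anxa1 and Anxa5 overlapped too, with Anxa1 higher in 4 of 6. Ranges did not overlap between Anxa2 and Anxa1, between Anxa5 and Anxa6, between Anxa7 and Anxa11, or between Anxa11 and Anxa9.

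**Figure D1:**
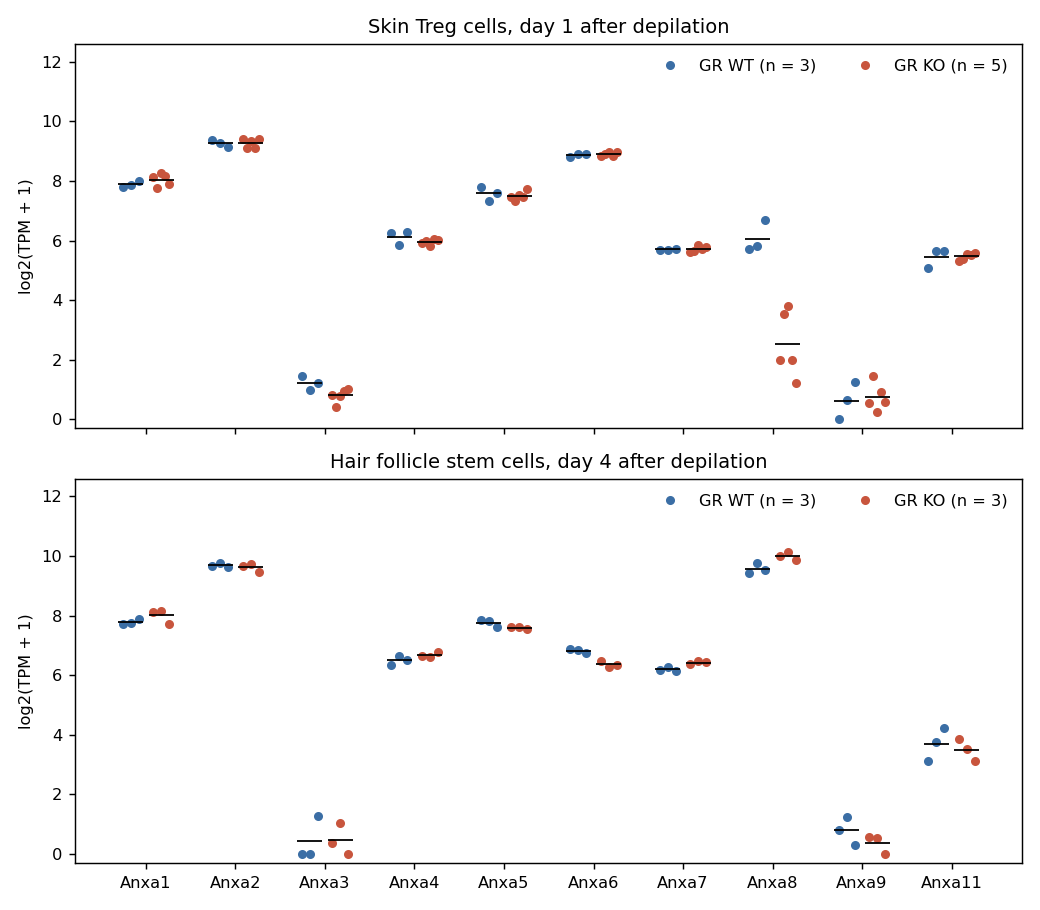
Level of each of the 10 annexins in every library, as log2(TPM + 1) on the vertical axis, for Treg cells and HFSC, with GR WT and GR KO libraries as separate points and a bar at each group's mean of the plotted values. In HFSC the points of Anxa8 and Anxa2 lie highest and interleave, with Anxa2 higher on the GR WT mean (831 against 764 TPM). In Treg cells the GR WT and GR KO points of Anxa8 separate.

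Anxa8 and Anxa6 set the cell types apart most. Anxa8 was 30.03 times higher in HFSC than in Treg cells on the mean of all libraries, and 11.03 times higher on the GR WT libraries alone. Anxa6 was 4.90 times higher in Treg cells (475 against 97.0 TPM), and Anxa11, which binds the calcium sensor Pdcd6, was 3.75 times higher (43.6 against 11.6 TPM). For these 3 genes every library of one cell type lay beyond every library of the other, and this held with median ratio scaling over both tables (HFSC over Treg 23.0 for Anxa8; Treg over HFSC 6.53 for Anxa6 and 5.03 for Anxa11). Anxa2, Anxa4 and Anxa7 were 1.31, 1.49 and 1.52 times higher in HFSC without overlap in TPM, but their ranges overlapped with that scaling, and Anxa2 turned direction (HFSC over Treg 0.976). Anxa1 (254 TPM in Treg cells, 240.3 TPM in HFSC) and Anxa5 (185 and 205 TPM) overlapped. The tables were made separately from cells taken on different days, and Anxa8 is counted on NM_001281845 (1787 bases) in the Treg table and on NM_013473 (1865 bases) in the HFSC table, so these ratios were not tested.

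Summed over the 10 members, annexin transcripts came to 1743 ± 43.5 TPM in Treg GR WT (SD, n = 3) and 1715 ± 109 TPM in Treg GR KO (SD, n = 5). The sum was 2321 ± 147 TPM in HFSC GR WT and 2548 ± 208 TPM in HFSC GR KO (SD, n = 3 each). The GR WT and GR KO ranges overlapped in both cell types. Of the Treg sum, Anxa2 made up 35.9% on average, Anxa6 27.6%, Anxa1 14.7% and Anxa5 10.7%, while Anxa8 made up 0.0743% to 5.70% across libraries. Of the HFSC sum, Anxa8 made up 36.6%, Anxa2 33.4%, Anxa1 9.85%, Anxa5 8.47% and Anxa6 4.04%.

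**Figure D2:**
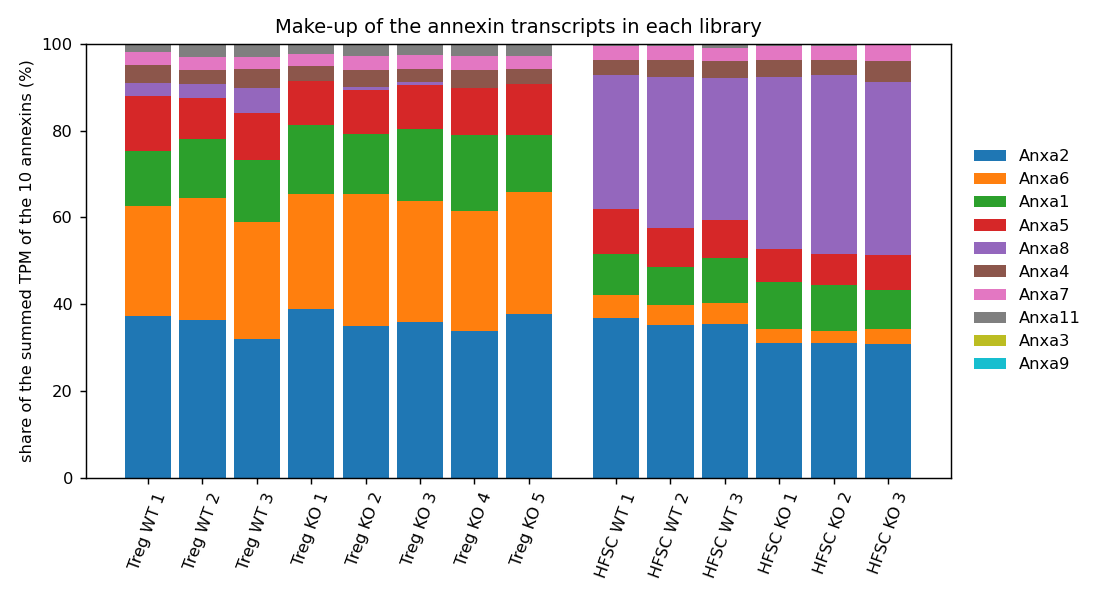
Share of each annexin in the summed TPM of the 10 members, in percent on the vertical axis, with 1 stacked bar per library for Treg cells and HFSC. Anxa2 and Anxa6 fill most of each Treg bar, and Anxa8 and Anxa2 most of each HFSC bar, where Anxa8 took 30.9% to 41.2%.

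In Treg cells, Anxa8 was the member that differed between the genotypes. It stood at 51.5, 54.8 and 101 TPM in the 3 GR WT libraries and at 2.99, 10.7, 12.9, 3.02 and 1.34 TPM in the 5 GR KO libraries. Every GR KO library lay below every GR WT library, as for 5.1% of all genes tested, and the mean fell to 6.19 ± 5.22 TPM (SD, n = 5) from 69.2 ± 27.9 TPM (SD, n = 3), an 11.2-fold difference. The log2 difference was -3.55 (SE 0.53, 95% interval -4.71 to -2.39). Without GR WT replicate 3, the highest library, it was -3.24 (limma adjusted p = 0.0470). Anxa8 (chr14:34085979-34100568, plus strand) rested on 26 to 1883 tags per Treg library. The gene was 1 of 152 called lower in GR KO among 11579 tested by limma at a Benjamini-Hochberg adjusted p of 0.05 (1.31%; 1.51% in either direction), a call lost with limma's robust prior. Nothing is read from the call, since the difference was known when the family was chosen. In all, 175 genes were called, 107 without GR WT replicate 1 and 84 without GR WT replicate 3. In bulk libraries of sorted cells, fewer cells of a type and less RNA per cell cannot be told apart.

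Marker lists of 9 other skin cell types, some of which share genes, were measured in the Treg libraries, and for 7 of them the summed level was lower in every GR KO library than in any GR WT library. Of all single genes tested in these libraries, 5.1% had every GR KO library below every GR WT library, and 1.31% were called lower. The 10 basal keratinocyte markers summed to 349 to 585 TPM in GR WT and to 28.7 to 114.5 TPM in GR KO, and 6 of 9 tested were called lower. Suprabasal keratinocyte markers summed to 50.0 to 108 TPM and 5.43 to 26.4 TPM (3 of 5 tested lower), and macrophage and monocyte markers to 216 to 390.3 TPM and 66.0 to 181 TPM (5 of 12 lower). Neutrophil markers summed to 99.2 to 350.3 TPM in GR WT and 26.3 to 50.9 TPM in GR KO (2 of 6 lower), with Ngp at 0 in all libraries. Fibroblast markers summed to 112 to 189.9 TPM and 21.9 to 106 TPM (0 of 6 called), stem cell markers to 175 to 319 TPM and 38.3 to 65.3 TPM (2 of 4 lower), and sebocyte markers to 121 to 151 TPM and 56.1 to 91.6 TPM (2 of 7 lower). The sums overlapped for endothelial markers (18.8 to 37.8 TPM in GR WT, 14.5 to 24.9 TPM in GR KO, 0 of 4 called) and melanocyte markers (0.792 to 7.82 TPM and 0 to 2.21 TPM, none tested). Without GR WT replicate 1 the basal keratinocyte calls numbered 3, and without GR WT replicate 3 they numbered 2. In either case the suprabasal calls numbered 2, the stem cell and sebocyte calls 1 each, and the macrophage and neutrophil calls 0. The part of these cell types in the Anxa8 difference was not tested.

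As a percent of its mean HFSC level, Anxa8 in Treg libraries stood at 5.75, 6.12 and 11.3 in GR WT and at 0.334, 1.20, 1.44, 0.338 and 0.149 in GR KO. The median of the 10 basal keratinocyte markers, measured the same way, was 1.58, 1.38 and 1.77 in GR WT and 0.0663, 0.103, 0.377, 0.0736 and 0.0764 in GR KO. Both were higher in each GR WT library than in any GR KO library, and Anxa8 was above the marker median in all 8. Of the single markers, Krt15, a keratin of follicle stem cells, was at 2.55, 2.64 and 5.06% of its HFSC level in GR WT, below Anxa8 in each. Krt5, Krt15, Krt17, Trp63, Col17a1 and Itgb4 were below Anxa8 in all 8 libraries, and Krt14 in all but GR KO replicate 5. The other 3 markers were not. Itga6 was above Anxa8 in 8 of 8 libraries, Dst in 6 and Lamb3 in 3, and the groups overlapped for Itga6 (12.7 to 17.2% in GR WT, 11.9 to 15.4% in GR KO) and Dst (5.58 to 10.97% and 2.61 to 5.65%).

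The gene whose Treg profile lay closest to that of Anxa8 was Fam25c. Likeness was measured over the 8 libraries as the root mean square difference of centred log2(TPM + 1) values, which was 0.41 for Fam25c against a median of 1.90 over 11578 genes. Next came Krt5 (0.45), the basal keratinocyte keratin, Fxyd3 (0.46), an ion pump regulator, Perp (0.52), a desmosome protein, and Lgals7 (0.53), galectin 7 of stratified epithelia. Krt5 averaged 84.1 TPM in GR WT and 9.71 TPM in GR KO. Genes with a large spread across these libraries share the same high and low samples, so likeness is a description. The median of 1.90 lies near the SD of Anxa8 itself (2.04), about the distance of a gene that does not vary.

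**Figure D3:**
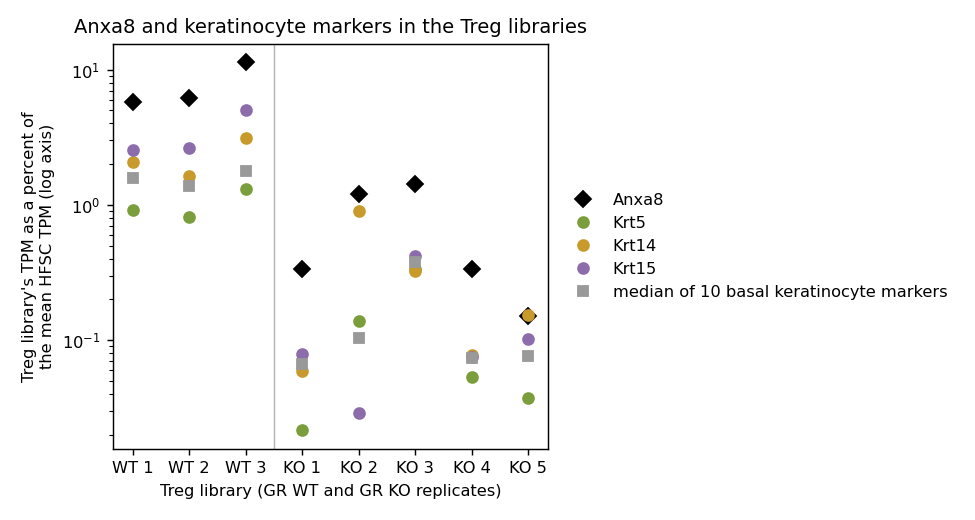
Anxa8, the keratins Krt5, Krt14 and Krt15 and the median of the 10 basal keratinocyte markers in each Treg library, as a percent of the mean level over the 6 HFSC libraries, on a log axis. Anxa8 lies above the marker median in all 8 libraries, and both are lower in the 5 GR KO libraries than in the 3 GR WT libraries.

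The other 7 tested annexins differed little between Treg GR KO and GR WT, with log2 differences from -0.16 to 0.16 and overlapping groups. None passed, with a smallest limma adjusted p of 0.584, and the 95% intervals lay within -0.42 to 0.42. Of 8 tested members, 1 was called, Anxa8, against 1.51% of all genes called in either direction. The same 1 (12.5%) had groups that did not overlap, which was true of 8.52% of all genes. The median log2 difference of the 8 was 0.02, against -0.04 over all genes. Below, each is given by role.

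Anxa1 (chr19:20373434-20390671), the glucocorticoid-regulated member, was at 221, 230.1 and 256 TPM in Treg GR WT and at 279, 218, 305, 288 and 237 TPM in GR KO. The lowest library was a GR KO and so was the highest, and the log2 difference was 0.16 (SE 0.12, 95% interval -0.10 to 0.42, limma adjusted p = 0.584). The lower bound of -0.10 belongs to the main fit alone, and with quantile scaling the log2 difference was 0.11 (SE 0.12).

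Anxa2 (chr9:69453683-69491785), the S100a10-bound member, was the most abundant annexin in every Treg library. It was at 656, 617 and 569 TPM in GR WT and at 678, 549, 656, 552 and 682 TPM in GR KO (log2 0.02, 95% interval -0.21 to 0.25, limma adjusted p = 0.963). Anxa6 (chr11:54978953-55033471), which carries a duplicated core and links membranes to the cytoskeleton, was steadier, at 445, 475 and 477 TPM in GR WT and 459, 477, 506, 454 and 507 TPM in GR KO. Its log2 difference was 0.04 (95% interval -0.13 to 0.22, limma adjusted p = 0.855).

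Anxa5 (chr3:36448924-36475887), which binds phosphatidylserine, was at 224, 159.8 and 193 TPM in GR WT and at 174, 159.4, 186, 175 and 209 TPM in GR KO. The GR KO values lay almost wholly within the GR WT range (log2 -0.08, 95% interval -0.35 to 0.19, limma adjusted p = 0.819). Anxa4 (chr6:86736840-86793584), known from epithelia, was at 74.6, 56.7 and 76.5 TPM in GR WT and 59.6, 62.8, 55.0, 65.9 and 64.3 TPM in GR KO. All GR KO values lay inside the GR WT range but 1, and the log2 difference was -0.16 (95% interval -0.42 to 0.11, limma adjusted p = 0.595).

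Anxa7 (chr14:20455261-20480133), which promotes membrane fusion, averaged 51.1 ± 0.802 TPM in GR WT (SD, n = 3) and 51.9 ± 3.56 TPM in GR KO (SD, n = 5). Anxa11 (chr14:25842155-25886804) averaged 43.7 ± 9.54 and 43.5 ± 3.53 TPM. The log2 differences were 0.02 and 0.01 (limma adjusted p = 0.961 and 0.979).

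**Figure D4:**
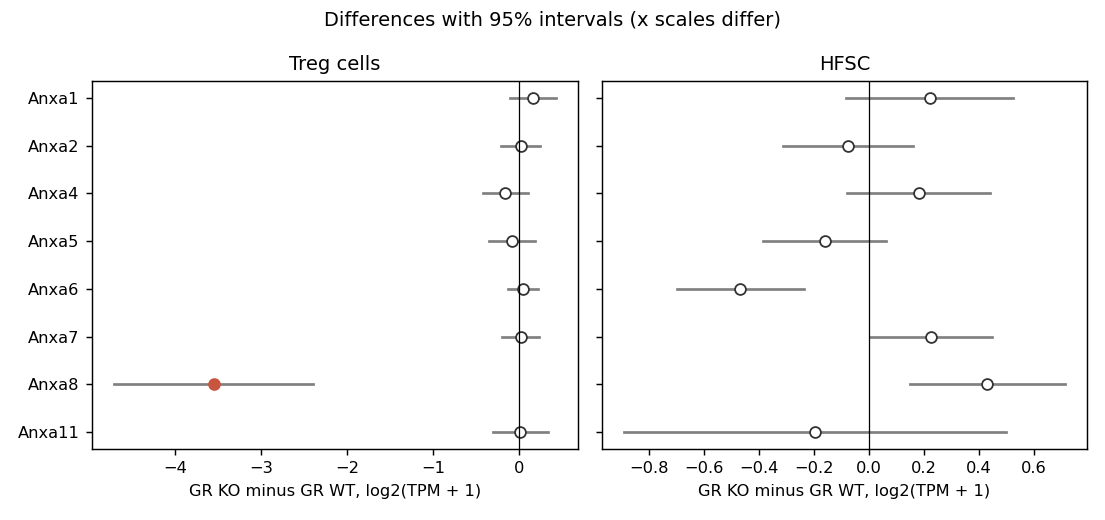
Log2 difference of GR KO from GR WT for the 8 tested annexins in Treg cells and in HFSC, on the log2(TPM + 1) scale, with 95% intervals from limma, a filled point for the gene called and a different horizontal scale in each panel. Anxa8 stands at -3.55 in Treg cells, the other 7 Treg values lie between -0.16 and 0.16, and in HFSC the intervals of Anxa6, Anxa7 and Anxa8 do not hold 0.

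In HFSC, which the deletion does not target, no annexin passed the threshold, and 3 of 8 tested members had groups that did not overlap. Anxa6 was lower in GR KO, and Anxa7 and Anxa8 were higher. The 3 (37.5%) compare with 23.5% of the 12493 genes tested in HFSC, and all 3 had an unadjusted p under 0.05, as did 2074 of all genes. By limma, 22 genes (0.176%) were called in this comparison, and leaving out any 1 library left 0 to 5 (2 without GR WT replicate 1).

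Anxa6 was at 116, 114 and 107 TPM in HFSC GR WT and at 87.2, 75.6 and 81.0 TPM in GR KO. Every GR KO library lay below every GR WT library, which was true of 12.8% of all genes, and the GR KO mean was 72.2% of the GR WT mean. The log2 difference was -0.47 (SE 0.10, 95% interval -0.70 to -0.24, limma adjusted p = 0.0905). Without GR WT replicate 1 it was -0.44 (adjusted p = 0.0976).

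Anxa8 was at 686, 869 and 737 TPM in HFSC GR WT and at 1032, 1124 and 927 TPM in GR KO. All GR KO libraries were higher than all GR WT libraries, as for 10.7% of all genes, with means of 1028 ± 98.8 and 764 ± 94.5 TPM (SD, n = 3 each). The log2 difference was 0.43 (SE 0.12, 95% interval 0.15 to 0.71, limma adjusted p = 0.151), and 0.36 without GR WT replicate 1 (adjusted p = 0.185). Anxa8 thus lay in opposite directions in the Treg and HFSC comparisons, and the difference between them was not tested. Anxa7 was at 71.6, 75.9 and 69.4 TPM in GR WT and 81.7, 87.2 and 85.1 TPM in GR KO, again without overlap (log2 0.23, 95% interval 0.0049 to 0.45, limma adjusted p = 0.291). Its value without GR WT replicate 1 was 0.22 (adjusted p = 0.259).

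Markers of other follicle cells were measured in the same libraries. Sebocyte markers summed to 3183 to 4929 TPM in HFSC GR WT and to 6995 to 8673 TPM in GR KO, with 7 of 8 not overlapping (87.5%, against 23.5% of all genes). Of the 8, 1 was called higher, the lipid droplet gene Plin2, against 0.176% of all genes called in either direction. Without GR WT replicate 1 the GR WT sums began at 4743 TPM and 0 of 8 were called. Basal keratinocyte markers summed to 22682 to 27662 TPM in GR WT and 16852 to 20096 TPM in GR KO, with 0 of 10 called and 2 of 10 not overlapping. Stem cell markers summed to 5875 to 8613 TPM and 4643 to 5946 TPM, which overlapped, with 0 of 8 called. The highest GR WT sums other than that of replicate 1 were 24504 and 6415 TPM, in that order. Their part in the Anxa6, Anxa7 and Anxa8 values was not tested. In HFSC, macrophage and monocyte markers were low (24.9 to 39.8 TPM summed, Ms4a7 at 0).

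**Figure D5:**
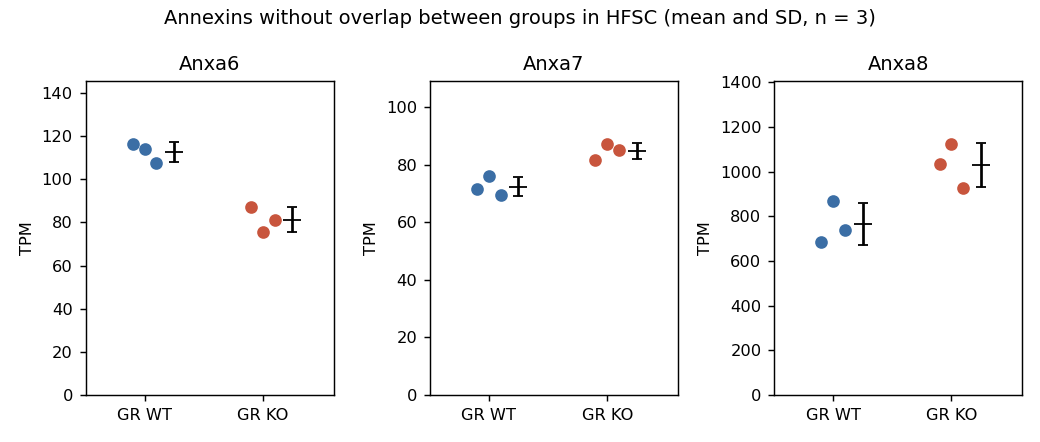
TPM of Anxa6, Anxa7 and Anxa8 in each HFSC library, 1 panel per gene with its own axis from 0, points for the 3 GR WT and 3 GR KO libraries and beside them the mean and SD. For Anxa6 all GR KO points lie below the GR WT points, and for Anxa7 and Anxa8 all lie above them.

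The other 5 tested members overlapped between the HFSC groups, with log2 differences from -0.20 to 0.22 and limma adjusted p of 0.442 to 0.784. Anxa1 was at 210.3, 216 and 237 TPM in GR WT and 279, 287 and 212 TPM in GR KO, so that a pair of GR KO libraries lay above all GR WT libraries and the third lay among them. Anxa2 was at 816, 877 and 799 TPM in GR WT and 804, 849 and 713 TPM in GR KO (log2 -0.08). Anxa5 was at 229, 224 and 197 TPM in GR WT and 197, 196 and 186 TPM in GR KO (log2 -0.16), with the highest GR KO library just above the lowest GR WT library. Anxa4 averaged 90.0 ± 9.75 TPM in GR WT and 102 ± 5.87 TPM in GR KO (log2 0.18, and 0.10 without GR WT replicate 1). Without that library Anxa1 was at 0.19, Anxa2 at -0.09 and Anxa5 at -0.12 on the log2 scale.

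Anxa11 was low in HFSC, at 7.80, 12.4 and 17.7 TPM in GR WT and 13.5, 10.6 and 7.69 TPM in GR KO, and varied most of the tested members across these libraries (SD 0.43 on the log2 scale). Its log2 difference of -0.20 was 0.07 without GR WT replicate 3 and -0.48 without GR WT replicate 1. It rested on 54 to 186 tags per library. The genes nearest to it in profile over the 6 libraries were Rwdd1 (0.07), Kitl (0.07), Lgr6 (0.08), Morf4l1b (0.08) and Gm15446 (0.08), against a median of 0.42 over 12492 genes. Kitl encodes stem cell factor and Lgr6 marks stem cells of the upper follicle. Over few libraries small differences of this kind arise easily, and nothing is read from them about shared control.

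Anxa3 and Anxa9 fell under the filter of a mean of 1 TPM in both tables. Anxa3 (chr5:96793385-96845968), known from neutrophils, was at 1.74, 0.966 and 1.34 TPM in Treg GR WT and at 0.768, 0.332, 0.719, 0.942 and 1.05 TPM in GR KO. The groups overlapped through 1 GR WT library, and with no filter the log2 difference was -0.42 (SE 0.20, limma adjusted p = 0.3996). These values rest on 4 to 22 tags per library. The neutrophil markers given above summed lower in the same GR KO libraries, and their part in the Anxa3 values was not tested. In HFSC, Anxa3 was listed at 0 in 3 of 6 libraries, where 3 tags would correspond to 0.389 to 0.651 TPM over the HFSC libraries.

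Anxa9 (chr3:95296094-95307176), an annexin whose calcium sites are degenerate, was at 0, 0.555 and 1.36 TPM in Treg GR WT and at 0.463, 1.71, 0.186, 0.912 and 0.501 TPM in GR KO. The groups overlapped (log2 0.13 with no filter, limma adjusted p = 0.892). In HFSC it reached 1.38 TPM at most, with 0 to 10 tags per library (log2 -0.42 with no filter, limma adjusted p = 0.574). No difference in Anxa3 or Anxa9 passed in either table. The remaining annexin genes with a row, Anxa10 and Anxa13, were listed at 0 in all 14 libraries, where 3 tags would correspond to at most 0.564 TPM for Anxa10 and 0.840 TPM for Anxa13.

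The partners of the annexins were read from 7 lists of 61 genes, of which 47 were tested in each table. In Treg cells 4 of the 47 (8.51%) were called, all lower in GR KO, against 1.31% of all genes called lower. They were S100a1, Ptgs2, Plaur and Serpinb2. Without GR WT replicate 1 or without GR WT replicate 3 the count was 2, as S100a1 and Ptgs2 no longer passed. Groups did not overlap for 9 of the 47 (19.1%), against 8.52% of all genes. The macrophage, neutrophil and keratinocyte markers given above were lower in the same GR KO libraries, and their part in these counts was not tested.

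Of the 5 tested S100 genes, whose products dock on annexin tails, 1 was called, lower in GR KO (20%, against 1.31% of all genes). S100a1 was at 48.5, 34.3 and 53.3 TPM in GR WT and at 20.7, 13.8, 22.0, 18.9 and 23.5 TPM in GR KO, without overlap (2.29-fold lower, log2 SE 0.19, limma adjusted p = 0.0124). S100a10, the Anxa2 partner, was far more abundant than Anxa2 itself in TPM, at 3777 ± 492 TPM in GR WT (SD, n = 3) and 4491 ± 451 TPM in GR KO (SD, n = 5, log2 0.25, limma adjusted p = 0.353). S100a4 was highest of the list (7677 ± 1481 and 9261 ± 1073 TPM, limma adjusted p = 0.391). Among 6 other binding partners none passed, the scaffold gene Ahnak showing 350.0 ± 124 TPM in GR WT and 214.5 ± 68.8 TPM in GR KO (log2 -0.69, limma adjusted p = 0.302). The channel kinase gene Trpm7 (log2 -0.25), the Ras regulator gene Rasa1 (0.16) and Sri, which encodes sorcin (0.09), had limma adjusted p of 0.523, 0.647 and 0.728.

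Formyl peptide receptors, through which Anxa1 signals, were near 0 in Treg libraries. Fpr2 was at 2.13, 1.97 and 2.98 TPM in GR WT and 0.752, 0, 0.176, 0.144 and 0.427 TPM in GR KO (log2 -1.39, SE 0.31, limma adjusted p = 0.0562). It passed in 2 of the 12 alternatives that tested it, a pseudocount of 5 (0.0420) and no filter on low values (0.0189). Fpr2 met the filter of a mean of 1 TPM only through its GR WT libraries. With any 1 of them left out it fell under the filter. Fpr1 was at 2.51, 0.193 and 3.35 TPM in GR WT and listed at 0 in all 5 GR KO libraries. Fpr3 was listed at 0 throughout. These receptors are known from neutrophils and macrophages, and the part of those cells in these values was not tested.

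Of 8 tested genes of eicosanoid synthesis, the lipid mediator pathway that Anxa1 is known to restrain, 1 was called, lower in GR KO. That is 12.5%, against 1.31% of all genes called lower. Groups did not overlap for 3 of the 8 (37.5%, against 8.52% of all genes), and the median log2 difference was -0.24. Ptgs2, the inducible cyclooxygenase gene, was at 22.5, 9.68 and 26.1 TPM in GR WT and at 2.57, 1.47, 1.51, 1.32 and 5.63 TPM in GR KO (log2 -2.56, SE 0.39, limma adjusted p = 0.00832). Its adjusted p was 0.0507 without GR WT replicate 1 and 0.0543 without GR WT replicate 3. Alox5ap (log2 -1.52, limma adjusted p = 0.108) and Pla2g4a (log2 -1.24, limma adjusted p = 0.0932) were lower but not called. Alox5ap passed in 1 of 16 alternatives, with replicate number as a block (0.0272). Pla2g4a passed in 1 of the 11 alternatives that tested it, with no filter on low values (0.0298). With any 1 GR WT library left out, Pla2g4a fell under the filter. Ptges3 was the most abundant of the list (77.5 and 84.1 TPM, limma adjusted p = 0.733).

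Of 6 tested genes of the plasminogen system, which Anxa2 serves at the cell surface, 2 were called, lower in GR KO (33.3%, against 1.31% of all genes). Plaur, the urokinase receptor gene, was at 10.8, 12.0 and 9.56 TPM in GR WT and 1.95, 1.58, 1.44, 4.72 and 2.15 TPM in GR KO (log2 -1.87, SE 0.28, limma adjusted p = 0.0073). Serpinb2, which encodes a urokinase inhibitor, was at 8.41, 5.92 and 10.9 TPM in GR WT and at 0.368, 0, 0.345, 0 and 0 TPM in GR KO (log2 -3.02, SE 0.29, limma adjusted p = 0.00113). Neither group pair overlapped (2 of 6, 33.3%, against 8.52% of all genes). Serpinb2 met the filter of a mean of 1 TPM only through its GR WT libraries. The plasminogen receptor gene Plgrkt was the most abundant of the list, at 121 ± 28.5 and 162 ± 24.1 TPM (log2 0.43, limma adjusted p = 0.287).

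None of 12 tested genes that move or expose phosphatidylserine, the ligand of Anxa5, passed in Treg cells, and their median log2 difference was -0.07. The flippase genes Atp11b (log2 -0.28) and Atp11a (-0.31), the flippase subunit gene Tmem30a (0.20, the most abundant at 122 and 141 TPM) and the lipid transporter gene Abca1 (-0.29) had the smallest p. None of 9 tested membrane repair genes passed either (median -0.04). Of these, Ehd2 (3.60 ± 1.85 and 1.15 ± 0.338 TPM, log2 -1.02, limma adjusted p = 0.187) and Smpd1 (log2 0.32, limma adjusted p = 0.368) did not overlap between the groups, in opposite directions. These 2 of 9 (22.2%) compare with 8.52% of all genes. Cav1 (log2 -1.51), Pdcd6ip (-0.15) and Capns1, the most abundant (299.7 and 290.8 TPM, log2 -0.04), overlapped.

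In HFSC none of the 47 tested partner genes was called, and 12 (25.5%) had groups that did not overlap, against 23.5% of all genes. The formyl peptide receptor genes were listed at 0 in all 6 libraries. Of the S100 genes, S100a11 was at 1043, 587 and 566 TPM in GR WT and 509, 474 and 452 TPM in GR KO (log2 -0.56, limma adjusted p = 0.259). GR WT replicate 1 was the highest library, and without it the log2 difference was -0.27. S100a10 was at 559 ± 116 and 440.1 ± 36.9 TPM (log2 -0.33), S100a6, the most abundant, at 1438 ± 178 and 1246 ± 149.6 TPM (log2 -0.21), and S100a4 differed by 0.43 on the log2 scale. All 3 overlapped between the groups, with limma adjusted p of 0.333, 0.483 and 0.615.

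Among the other partners in HFSC, Ahnak was higher in GR KO without overlap, at 128 ± 14.7 against 98.7 ± 10.01 TPM (log2 0.37, limma adjusted p = 0.198). Trpm7 (log2 0.26), Sri (-0.16) and Src (-0.11) overlapped. Ptgs2 and Serpinb2, both lower in the Treg GR KO libraries, were higher in the HFSC GR KO libraries without overlap, and neither passed. Ptgs2 was at 3.78, 7.43 and 8.56 TPM in GR WT and 21.1, 41.5 and 12.8 TPM in GR KO (log2 1.69, SE 0.42, limma adjusted p = 0.117). Serpinb2 was at 2.45, 3.63 and 1.39 TPM in GR WT and 17.4, 17.9 and 7.39 TPM in GR KO (log2 2.09, SE 0.38, limma adjusted p = 0.0689). The log2 differences without GR WT replicate 1 were 1.39 for Ptgs2, 2.11 for Serpinb2 and 0.29 for Ahnak. The difference between the cell types was not tested for either gene.

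Plgrkt was also higher in HFSC GR KO without overlap (129.7 against 99.2 TPM, log2 0.39, limma adjusted p = 0.160), while Plau (log2 -0.37) and Plaur (0.59) overlapped. Of the eicosanoid genes, Ptges (log2 -0.25), Pla2g4a (-0.20), Lta4h (-0.09) and Ptges3, the most abundant (72.2 and 75.8 TPM), overlapped. Of the phosphatidylserine genes, Abca1 (80.7 against 53.1 TPM, log2 0.61), Atp8a1 (log2 0.62) and the scramblase gene Ano6 (0.22) were higher in GR KO, and Plscr3 (-0.26) lower, all without overlap and with limma adjusted p of 0.143 to 0.415. When GR WT replicate 1 was left out, Atp8a1 was at 0.40, Ano6 at 0.11, Abca1 at 0.44 and Plscr3 at -0.28 on the log2 scale. Among 11 tested membrane repair genes the median was -0.15. Myof, which encodes the repair protein myoferlin, was at 61.8, 67.2 and 54.7 TPM in GR WT and 46.1, 49.1 and 43.1 TPM in GR KO (log2 -0.40, limma adjusted p = 0.160). Ehd1 (log2 -0.25) and the calpain gene Capn1 (-0.15) were also lower without overlap, and Capn2 (-0.19) and Capns1 (0.06) overlapped. With GR WT replicate 1 left out, Myof was at -0.39, Ehd1 at -0.30, Capn1 at -0.10 and Plgrkt at 0.35.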

How the data were processed

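The authors deposited 1 TPM table per cell type (14 libraries, stranded mRNA kit per the labels' protocols), each row being 1 RefSeq transcript per gene symbol. FastQC, Trim Galore, STAR, HOMER and mm10 are named in the submitters' processing notes. No version, setting or use of strand was given in the sources used here. The HFSC column names hold a prefix of unknown meaning, so genotype and number were used to match them to samples. TPM times length gave whole tags within 0.1 for 100% of the low values tested in every library. Low tag counts were mostly even numbers (all of the 4 to 22 tags of Anxa3 in Treg libraries), so a fragment may have counted as more than 1 tag. Floors of 3 tags may therefore understate counting error, and they cover no other error.

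Each table was fitted alone on log2(TPM + 1) values by limma (3.58.1, R 4.3.3) with a trended prior. Genes whose mean reached 1 TPM were tested, two-sided, with Benjamini-Hochberg adjustment over all of them and an adjusted p of 0.05. Differences on this scale understate those of low genes. The fit was also run on simulated data. There all genes shared the same spread beyond counting and no library stood apart, so it cannot show how the fit performs on these libraries. Alternatives covered the pseudocount, the filter, scaling, the prior, a replicate block and leaving out each library. The members, partner lists and markers were chosen with earlier results of these data known. Of each partner list the text names members called, or else those with the smallest p, and the most abundant. S100a10, Alox5ap and Pla2g4a in Treg cells and Fpr1 were named after their values were seen. Likeness was taken for the member with the largest SD in each table.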

Additional observations from a re-analysis of the deposited data

Results flagged for a closer look

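The Anxa8 values lay in opposite directions in the 2 comparisons, and the HFSC difference was not called (limma adjusted p = 0.151). All 5 Treg GR KO libraries lay below all 3 GR WT libraries (log2 difference -3.55), as for 5.1% of all genes. All 3 HFSC GR KO libraries lay above all 3 GR WT libraries (0.43), as for 10.7% of all genes. Basal keratinocyte markers summed lower in the same Treg GR KO libraries, and their part was not tested. The difference between the cell types was not tested, and the cells were taken on different days. No library stood apart from its group for any of the 10 annexins in the Treg GR KO group, the only group large enough to check. With 5 libraries such a check can miss a deviating library. It did not cover the Treg GR WT group, where Anxa8 stood at 51.5, 54.8 and 101 TPM.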

How the results depend on the processing

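The count of genes called in Treg cells (175) ranged from 84 to 186 with 1 library left out and was 111 with the replicate block. The count of annexins called (1, Anxa8) was 0 with the robust prior and 1 in the other 15 alternatives, over which and the robust prior the log2 difference ran from -3.87 to -2.79. The partner count (4) ranged from 2 to 5 with 1 library left out and was 6 with no filter on low values. In HFSC the count of 22 was 2 with no filter, 48 with a mean of at least 5 TPM, 68 with median ratio scaling, 58 with quantile scaling, 51 with the robust prior, 66 with the replicate block, and 0 to 5 with 1 library left out. No annexin was called in HFSC in any of 14 alternatives, where Anxa6 ran from -0.52 to -0.42 and Anxa8 from 0.36 to 0.53. The partner count in HFSC (0) was 1 with the replicate block. Samples with the same replicate number did not deviate together (r from -0.12 to 0.17 in Treg cells and -0.04 to 0.06 in HFSC), so the numbers were not taken as pairs.

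Reversals were limited to small uncalled values. With 1 library left out, the Treg log2 difference of Anxa2 ran from -0.0366 (without GR WT replicate 3) to 0.0657 and was also negative without GR KO replicate 1, 3 or 5 (-0.0154, -0.00341 and -0.0174). That of Anxa5 ran from -0.207 to 0.0344 (without GR WT replicate 1), and that of Anxa7 from -0.0160 (without GR KO replicate 3) to 0.0452. That of Anxa11 ran from -0.178 (without GR WT replicate 1) to 0.115, was -0.00783, -0.000882 and -0.0124 without GR KO replicate 3, 4 or 5, and was -0.0400 with the replicate block. HFSC Anxa11 ran from -0.479 to 0.0653 (without GR WT replicate 3). For HFSC over Treg levels, median ratio scaling over both tables gave log2 values of -0.0348 for Anxa2 and -0.270 for Anxa5, both positive in TPM. The cause was not tested. Anxa3 and Anxa9 rest on 26 tags or fewer in every library.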
